A study of Sicyos edulis with 9 samples.

Results

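The comparison of day 30 of storage with harvest covers 6 of the 9 libraries of a study of stored chayote (Sicyos edulis), a cucurbit grown for its fruit. The 3 S3 libraries come from fruits 30 days after storage and the 3 S1 libraries from fruits at the optimal harvest stage, both of the genotype labelled WT. The other 3 libraries (S2, 15 days of storage) enter only where they are named. Mature fruits of like size came from 1 field and were kept in plastic containers, and the sources differ on whether this was at room temperature or cooler. The replicates are called independent biological ones, without saying how many fruits each library holds. Each library gives FPKM, a level scaled to transcript length and to the number of reads, for the same 57814 unigenes of a Trinity assembly. Of these, 25920 had FPKM of at least 1 in at least 3 of the 6 libraries and were compared. The unigenes carry no gene names here, so the fruit could not be checked against markers of other tissues.

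Flavonoids, the compounds the study followed, are made from phenylalanine. Phenylalanine ammonia-lyase (PAL), cinnamate 4-hydroxylase (C4H) and 4-coumarate-CoA ligase (4CL) form an activated acid, chalcone synthase (CHS) joins it to malonyl units, and further enzymes turn the product into flavones, flavonols, isoflavonoids or the precursors of anthocyanins. UDP-glycosyltransferases (UGTs) attach sugars, which lets the products be stored in the vacuole. Factors of the MYB and bHLH families are known in many plants to switch these genes on, and members of the WRKY, bZIP and Dof families take part in stress responses, hormone responses and the use of stored reserves.

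No sequences of the unigenes were used here. The study designed primers for quantitative PCR, and among the 13 primer genes whose locus has a unigene here, those of the 2 structural genes and the 2 factors with the largest folds are shown, 5′ to 3′, because these 4 genes return among the results. Larger folds were found in genes without primers. SeFLS1 is listed as a flavonol synthase, SeIFR2 as an isoflavone reductase, and SebHLH2 and SebHLH1 as bHLH factors. Other names differ in locus between the primer list and the list of structural genes: SePAL2, SeCHS1, SeUGT1 and SeUGT4 of the primer list are other loci than the genes called by these names below, which follow the list of structural genes, and the primer locus of SePAL2 is SePAL3 below.
SeFLS1 forward: gatttcaggaacccagatca
SeFLS1 reverse: gagctcgaagaactccttac
SeIFR2 forward: ccactcgatgtttattaagg
SeIFR2 reverse: cagtggtgtatttaacttcc
SebHLH2 forward: ctctccatgctcagatctat
SebHLH2 reverse: ctagcagttctttcacatactc
SebHLH1 forward: catagcctcagcaagtgata
SebHLH1 reverse: ggagttcatcctcccataac

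After 30 days of storage 12087 of the 25920 tested unigenes, or 46.6%, differed from harvest. Calls were made with limma on log2(FPKM + 1) where the p adjusted by Benjamini-Hochberg was under 0.05, and folds are S3 minus S1 on that scale, which understates the change of low unigenes. Of the calls, 5686 were higher in S3 (21.9% of the tested) and 6401 lower (24.7%). Which side was the larger depends on the scaling, since with the libraries rescaled to the same total 6468 were higher and 5743 lower, and with quantile normalization 6240 and 5969. Their median log2 fold was 1.21 among the higher and -1.40 among the lower, while over all tested unigenes it was -0.01. In bulk fruit, fewer cells of a type and less RNA per cell cannot be told apart.

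Large differences leaned towards loss. A log2 fold of at least 2 in either direction was found for 1223 called unigenes that were higher in S3 and 1910 that were lower, and one of at least 4 for 177 higher and 383 lower. Abundant unigenes were called more often than low ones. Among the 1443 with a mean FPKM of at least 100, 25.8% were called higher in S3 and 32.1% lower, against 18.5% and 21.4% among the 9681 with a mean under 5. The 3 S3 libraries lay wholly above the 3 S1 libraries for 28.1% of the tested unigenes and wholly below for 29.9%, and 12042 of the 12087 called unigenes were among these. Libraries of 1 stage correlated with r of 0.926 to 0.952 in S3 and 0.922 to 0.967 in S1, and libraries of different stages with r of 0.687 to 0.771, each across unigenes, which are not independent of one another.

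**Figure D1:**
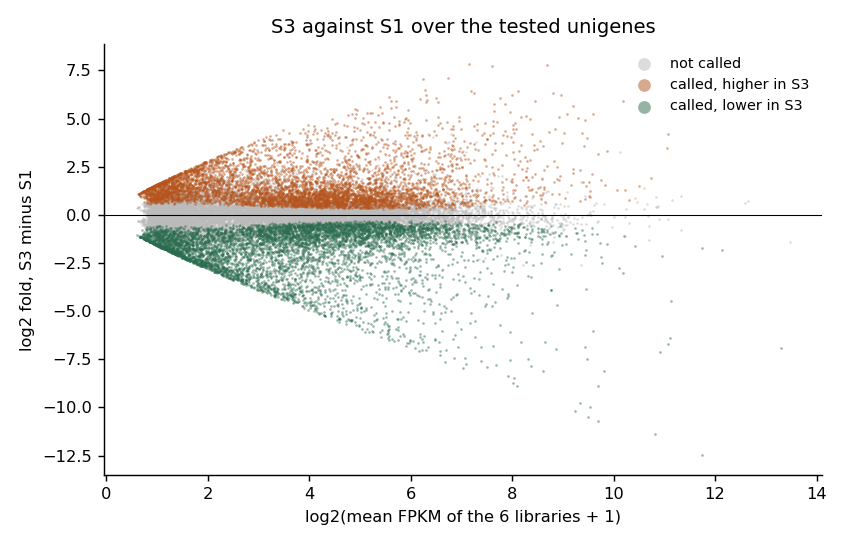
Each point is 1 of the 25920 tested unigenes, with log2(mean FPKM of the 6 libraries + 1) on the horizontal axis and the log2 fold, S3 minus S1, on the vertical axis. Points called higher in S3 (5686) are orange, points called lower in S3 (6401) are green and the rest are grey, and the lower side reaches further from 0 among abundant unigenes.

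The FPKM total was spread over more unigenes at day 30. The 10 most abundant unigenes of each library held 6.49%, 4.99% and 5.27% of its total in the S3 libraries, against 8.45%, 10.05% and 8.81% in the S1 libraries. In S3, 1255, 1333 and 1238 unigenes were needed to reach 50% of the total, against 1089, 992 and 1032 in S1. For both measures the stages did not overlap, and an exact two-sided permutation test gave p = 0.1, the smallest value that 3 libraries against 3 can reach. The share of the top 10 was lower by 3.52 percentage points in S3 and the number for 50% of the total was higher by 238. The single highest unigene of each library stood at 10515, 7224 and 6527 FPKM in S3, against 21337, 22635 and 19911 FPKM in S1.

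**Figure D2:**
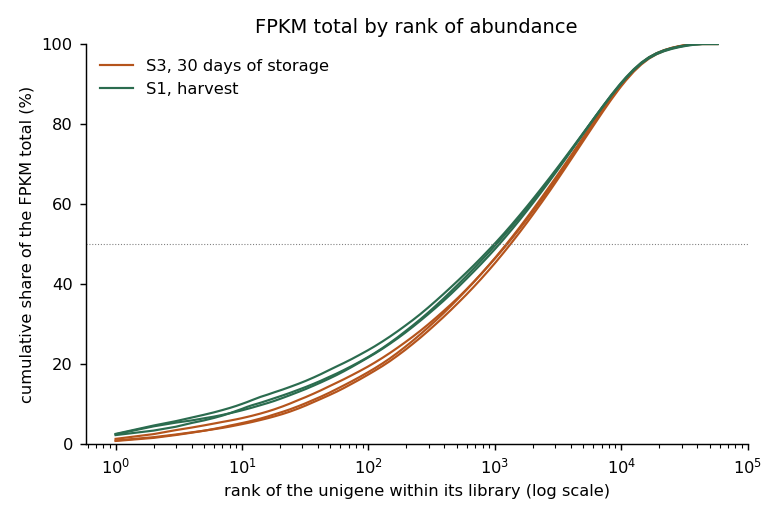
Lines give the cumulative share of the FPKM total (vertical axis, percent) against the rank of the unigene within its library (horizontal axis, log scale) for the 3 S3 libraries (orange) and the 3 S1 libraries (green). At rank 10 the S3 lines stand at 4.99% to 6.49% and the S1 lines at 8.45% to 10.05%, and the dotted line at 50% is crossed further to the right by all 3 S3 lines.

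Beside this, 40109 to 40304 unigenes had a value above 0 in the S3 libraries, against 41887 to 44454 in the S1 libraries. At FPKM of at least 1 the stages overlapped, with 26519 to 27217 unigenes in S3 and 26612 to 27466 in S1. The total FPKM of a library was 801066 to 832808 in S3, against 868507 to 886010 in S1. Depth, estimated from the steps that 1 read makes in low values, was 0.717 to 0.813 times that of S1 replicate 2 in S3, against 0.781 to 1 times in S1, so the stages overlapped. The part of depth and of the total in these counts was not tested.

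The upper ranks changed in membership. The 100 unigenes with the highest mean in S1 held 13.3%, 10.8% and 11.0% of the total in the S3 libraries, against 20.8%, 23.2% and 21.5% in the S1 libraries. Of these 100, 55 were called lower in S3 and 4 higher. The 100 with the highest mean in S3 held 18.9%, 17.3% and 17.7% in the S3 libraries, against 14.2%, 11.4% and 10.4% in the S1 libraries, and 54 of them were called higher and 5 lower. The lists were ranked by these same means, so their counts are a description. They shared 44 of 100 unigenes, while the top 10 shared 3 and the top 1000 shared 581.

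Unigenes outside the first 1000 ranks of S1 held more of the total in S3. The 9000 unigenes on the next ranks of S1 held 47.9 ± 0.8% of the total in S3 and 41.0 ± 1.0% in S1 (mean ± SD, n = 3 libraries each). The 47814 unigenes below them held 17.5 ± 0.9% in S3 and 10.2 ± 0.1% in S1. Read from the other end, the unigenes below rank 10000 of S3 held 10.7%, 10.7% and 10.4% of the total in the S3 libraries, against 17.4%, 21.4% and 21.2% in the S1 libraries. Ranking by the means of a stage favours a larger share of its lower ranks in the other stage, so these shares are a description.

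With the stage means as shares of the total, 36.36 percentage points of the total changed unigene. 228 unigenes accounted for 50% of the losses and 405 for 50% of the gains. The 10 largest losses came to 7.41 points, or 20.4% of all losses, and the 10 largest gains to 3.10 points, or 8.52% of all gains. Loss was thus carried by fewer unigenes than gain.

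The called unigenes carried most of this. Those called lower held 13.9%, 13.3% and 14.2% of the total in the S3 libraries, against 37.4%, 46.4% and 47.0% in the S1 libraries. Those called higher held 35.7%, 37.5% and 36.1% in the S3 libraries, against 13.1%, 9.56% and 9.75% in the S1 libraries. The 13833 not called held 47.3 ± 0.7% in S3 and 43.8 ± 3.5% in S1. S1 replicate 1 stood nearer to S3 than the other S1 libraries in both called classes. The calls came from these same libraries, so these shares are a description too.

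**Figure D3:**
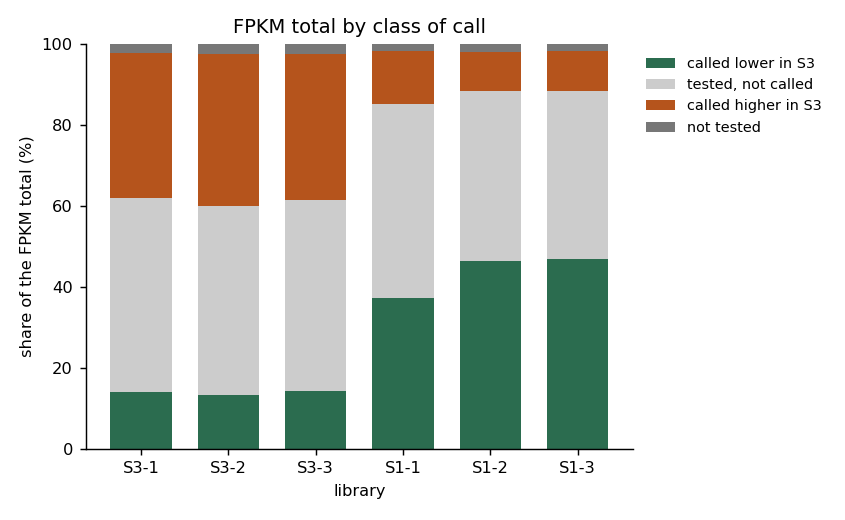
Stacked bars give the share of the FPKM total (vertical axis, percent) of the unigenes called lower in S3, not called, called higher in S3 and not tested, for each S3 library (left) and S1 library (right). The class called lower takes 13.3% to 14.2% in S3 and 37.4% to 47.0% in S1, and the class called higher takes 35.7% to 37.5% in S3 and 9.56% to 13.1% in S1.

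Single unigenes with no name here led both sides. TRINITY_DN17194_c0_g1, the largest loss of mean FPKM, had 298, 132 and 114 FPKM in the S3 libraries, against 17228, 22635 and 19911 FPKM in the S1 libraries. Its log2 fold was -6.90 ± 0.44 (SE; limma adjusted p = 0.000187), and it held 0.0224% of the total in S3 and 2.26% in S1. Without each library's own most abundant unigene the share of the top 10 was lower in S3 by 2.38 in place of 3.52 percentage points. TRINITY_DN6858_c1_g1, the largest gain, had 2057, 4301 and 5961 FPKM in the S3 libraries, against 284, 144 and 197 FPKM in the S1 libraries (log2 fold 4.22 ± 0.47, SE; limma adjusted p = 0.00109). The S3 libraries spread widely for the gain, and all 3 stood above every S1 library.

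Transcripts listed at one end of storage only held a larger share of the total at harvest, where a few of them were abundant. A unigene was counted here when it was listed at 0 in all 3 libraries of one stage and had FPKM of at least 1 in all 3 of the other. By this count 394 unigenes were present in S3 only and 574 in S1 only. An exact 0 in rounded FPKM is a listing, so these are counts with no test.

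The S3-only unigenes were low. They added up to 0.203%, 0.193% and 0.198% of the total in the S3 libraries, 22 of the 394 had a mean of at least 10 FPKM and none reached 100. The highest, TRINITY_DN8632_c0_g1, had 127, 17.6 and 20.7 FPKM in the S3 libraries and was listed at 0 in all 3 S1 libraries. Most of its mean rests on S3 replicate 1.

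The S1-only unigenes added up to 1.14%, 2.29% and 2.02% of the total in the S1 libraries. Of the 574, 95 had a mean of at least 10 FPKM and 9 of at least 100. TRINITY_DN32452_c1_g1, the highest, was listed at 0 in all 3 S3 libraries and had 2242, 9733 and 8492 FPKM in the S1 libraries, a mean of 6823 FPKM. All S1-only unigenes together summed to 9890, 20274 and 17835 FPKM there, so much of their share rests on this unigene. The typical level was alike at both ends, with a median of the mean FPKM of 3.20 for S1-only and 2.85 for S3-only unigenes.

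The S2 libraries place these losses and gains in time. Of the 394 S3-only unigenes, 210 were listed at 0 in all S2 libraries too and 4 had FPKM of at least 1 in all of them. Of the 574 S1-only unigenes, 73 were at 0 in all S2 libraries and 191 had FPKM of at least 1 in all of them. TRINITY_DN32452_c1_g1 had 3142, 2067 and 3002 FPKM in S2, and TRINITY_DN8632_c0_g1 had 0.55, 5.17 and 1.15 FPKM. The S1-only side thus held a set that was still present at day 15, while few of the S3-only side were.

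The S1-only count was the higher at each minimum tried, with 724 S3-only and 1132 S1-only unigenes at FPKM of at least 0.5, 36 and 104 at 5, and 7 and 50 at 10. With under 0.1 FPKM in place of 0 the counts were 429 and 690. Leaving out a library eases the rule for its stage, which then needs FPKM of at least 1, or a 0, in fewer libraries. The counts without a library thus stand under unequal rules, and their order is not read as a trait of single libraries. The order turned without S3 replicate 1, with 821 S3-only and 712 S1-only unigenes, and without S3 replicate 3, with 740 and 723. Without S3 replicate 2 the counts were 686 and 701. Without S1 replicate 1, 2 or 3 there were 474, 472 and 462 S3-only unigenes and 1205, 924 and 949 S1-only ones. A single listed unigene was among them, the bZIP factor TRINITY_DN11492_c0_g3, which was at 0 in all S3 libraries and at 3.36, 2.93 and 4.61 FPKM in the S1 libraries.

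The named genes need a word on their stages first. The names come from the study's supplementary lists of structural genes and of transcription factors, 229 unigenes in all. The 9 values of each listed unigene were set beside those of 11396 unlisted unigenes under each of the 6 possible orders of the stages, and the order with the most neighbours (r over 0.95) was counted. Unlisted unigenes had most neighbours under the deposited order in 7171 of 10961 cases (65.4%) and with S1 and S2 exchanged in 10.6%. Of 116 listed factors, 17 had most neighbours under the deposited order and 78 (67.2%) with S1 and S2 exchanged. Of 53 structural genes that stand under the same stages in the study's list, 4 had most under the deposited order and 31 with the values of S3, S1 and S2 put at S1, S2 and S3. That order, called the rotated order below, is the most common of the 53 and not the best of each gene. A further 19 of 91 structural genes matched to the study's list by their 9 values stand there under other stages than in the deposited files.

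The spread between replicates showed the same difference. The median SD of log2(FPKM + 1) of unlisted unigenes was 0.24 in S3, 0.12 in S2 and 0.32 in S1, that of the factors 0.29, 0.42 and 0.18, and that of the structural genes under the same stages 0.36, 0.30 and 0.12. One pair of rows shows an exchange outright. TRINITY_DN1395_c0_g1, named SePAL4, holds the 9 values of TRINITY_DN3049_c0_g2 with S1 and S2 exchanged, at 30.5, 58.8 and 47.1 FPKM in its S1 libraries where the other has 17.3, 19.96 and 16.6. What follows is given under the stages as deposited, and the counts under the other orders stand beside each list. The cause was not tested. Without the listed unigenes, 11927 were called, 5616 higher in S3 and 6311 lower.

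Of the 92 structural genes found in the files, 82 were tested, and 16 were called higher in S3, 35 lower and 31 not called. The median log2 fold was -0.56, beside -0.01 over all tested unigenes, of which 21.9% were called higher and 24.7% lower. The study put genes on this list because they differed between stages in these same samples, so nothing is read from the share called. Their FPKM summed to 3017, 3099 and 3076 in the S3 libraries, against 5199, 4790 and 4817 in the S1 libraries. With the genes under the same stages all moved to the rotated order, 19 were higher and 40 lower, and under the stages of the study's own list 21 were higher and 26 lower of 84 tested. The 28 genes that the study drew out of this list by their course in these samples are no independent evidence of a direction. Of its 19 harvest-side genes, 18 were tested and 17 were lower in S3, and of its 9 later-side genes, 8 were tested and all 8 were higher. Under the stages of the study's own list, 5 of the 19 harvest-side genes were higher and 7 lower, and under the rotated order none of the 8 later-side genes was higher and 2 were lower. The log2 folds of 9 structural genes named in the text changed sign under the stages of the study's own list, and those of 15 under the rotated order, while all kept it under every scaling, filter and pseudocount tried.

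**Figure D4:**
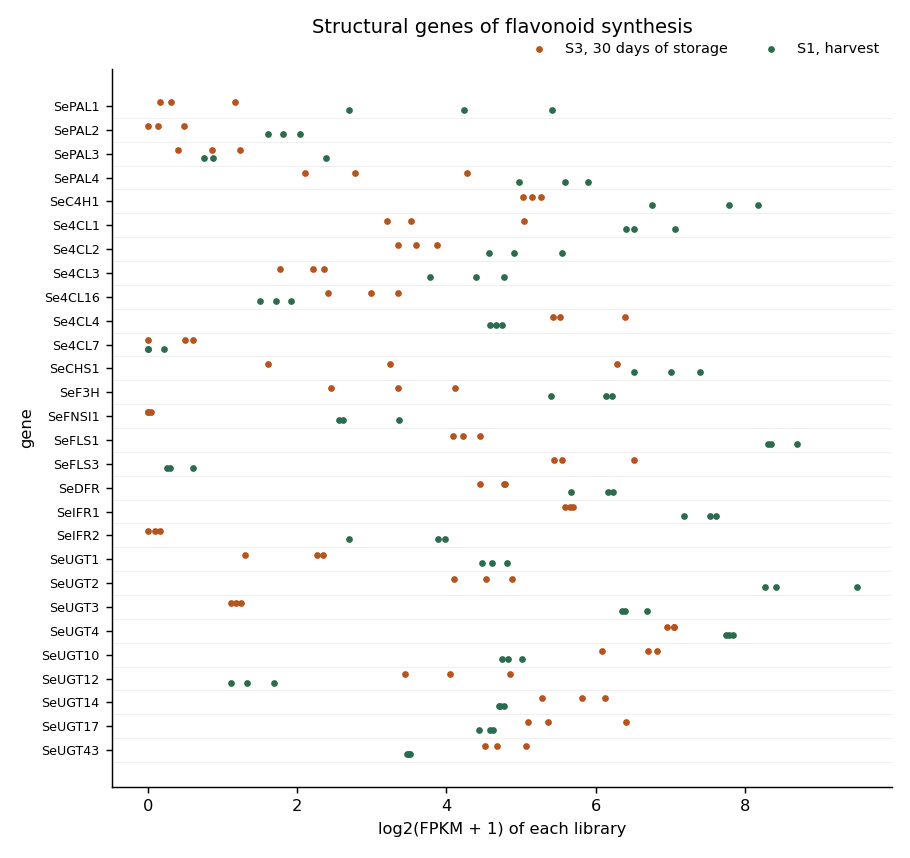
Points give log2(FPKM + 1) of each S3 library (orange, upper) and each S1 library (green, lower) for the 28 structural genes, in the order of the pathway. SeFLS1 and SeFLS3, both flavonol synthases, lie far apart in opposite directions, and SePAL3 and Se4CL7 were too low to be tested.

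At the entry of the pathway, 4 of 10 tested PAL genes were lower in S3 and none was higher, beside 24.7% lower and 21.9% higher over all tested unigenes. With the rotated order 4 of 11 were higher and 3 lower. With the stages of the study's own list 5 of 12 were lower and none was higher. SePAL1 had 1.24, 0.12 and 0.24 FPKM in the S3 libraries, against 5.48, 17.9 and 41.5 FPKM in the S1 libraries (log2 fold -3.57 ± 0.69, SE). SePAL2 had 0.10, 0.40 and 0 FPKM in S3, against 2.51, 2.06 and 3.10 FPKM in S1 (-1.61 ± 0.23). SePAL4 had 18.4, 3.30 and 5.85 FPKM in S3, against 30.5, 58.8 and 47.1 FPKM in S1 (-2.44 ± 0.56), and lost its call without S1 replicate 2. Its row is the one that holds the values of TRINITY_DN3049_c0_g2 with S1 and S2 exchanged. With the S1 values of that unigene, 17.3, 19.96 and 16.6 FPKM, the stages would overlap. The fourth, TRINITY_DN12096_c0_g2, had 4.45, 1.41 and 1.77 FPKM in S3, against 8.19, 7.54 and 6.8 FPKM in S1, and was not called without S3 replicate 2, S3 replicate 3 or S1 replicate 2. SePAL3, with 1.36, 0.82 and 0.32 FPKM in S3 and 0.84, 0.69 and 4.25 FPKM in S1, was not tested. The whole family was a small pool at either end, with summed levels of 72.4, 26.0 and 22.4 FPKM in S3 and 95.6, 143 and 158 FPKM in S1.

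SeC4H1, which hydroxylates cinnamate, had 37.5, 31.6 and 34.5 FPKM in S3, against 107, 221 and 287 FPKM in S1, with a log2 fold of -2.42 ± 0.35 (SE; limma adjusted p = 0.00282). With the stages of the study's own list its log2 fold was 0.59. The 4CL genes went both ways, with 5 of 11 lower in S3 and 2 higher. With the rotated order 4 were lower and 2 higher, and with the stages of the study's own list 2 were lower and 2 higher. Se4CL1 had 32.0, 10.5 and 8.20 FPKM in S3, against 133, 83.7 and 90 FPKM in S1 (log2 fold -2.73 ± 0.49). Se4CL3 had 2.43, 3.64 and 4.16 FPKM in S3, against 26.3, 20.1 and 12.8 FPKM in S1 (-2.20 ± 0.30). Se4CL2 had 13.7, 9.21 and 11.1 FPKM in S3, against 22.7, 29.1 and 46.0 FPKM in S1 (-1.41 ± 0.28). In each of these 3 the stages lay apart. With the stages of the study's own list the log2 folds were -0.46 for Se4CL1, 0.38 for Se4CL3 and -0.11 for Se4CL2.

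The 2 rising ligases were Se4CL4 and Se4CL16. Se4CL4 had 83.3, 45.0 and 42.2 FPKM in S3, against 24.3, 25.8 and 23.1 FPKM in S1 (log2 fold 1.12 ± 0.27, SE). Se4CL16 had 6.99, 9.19 and 4.36 FPKM in S3, against 1.83, 2.78 and 2.29 FPKM in S1 (1.21 ± 0.28). The call of Se4CL4 was lost without S1 replicate 3 and that of Se4CL16 without S3 replicate 2. With the rotated order both turned, with log2 folds of -0.54 for Se4CL4 and -0.90 for Se4CL16. The other 2 fallers, TRINITY_DN16556_c0_g3 and TRINITY_DN25974_c0_g1, had log2 folds of -1.44 and -0.80, and the second lost its call when any 1 of 4 libraries was left out. With the rotated order the second had a log2 fold of 0.90. Se4CL7 stayed under 1 FPKM in all 6 libraries and was not tested. The summed 4CL level was 297, 253 and 219 FPKM in S3 and 368, 309 and 317 FPKM in S1.

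SeCHS1, a chalcone synthase and so the first committed step, was the one tested harvest-side gene without a call. It had 76.8, 8.45 and 2.05 FPKM in S3, against 168, 128 and 90.1 FPKM in S1. All S3 libraries lay below all S1 libraries, but the S3 libraries spread so widely that a log2 fold of -3.26 ± 1.11 (SE) gave a limma adjusted p of 0.0513. It passed with all 9 libraries in the fit (adjusted p = 0.0210) and with the filter at FPKM 5 (adjusted p = 0.0451). Its direction depends on the order of the stages, since with the stages of the study's own list its log2 fold was 1.89 (limma adjusted p = 0.0044).

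SeF3H, which makes dihydroflavonols, had 16.4, 4.50 and 9.23 FPKM in S3, against 73.2, 69.5 and 41.4 FPKM in S1, a log2 fold of -2.61 ± 0.44 (SE). SeDFR, which takes dihydroflavonols towards anthocyanins and tannins, had 26.5, 26.3 and 20.9 FPKM in S3, against 74.0, 49.7 and 70.7 FPKM in S1 (-1.35 ± 0.19). With the spread of all 9 libraries SeDFR had an adjusted p of 0.0538, and with the stages of the study's own list a log2 fold of 0.73. SeFNSI1, a flavone synthase, was listed at 0, 0 and 0.03 FPKM in S3, against 4.92, 9.35 and 5.15 FPKM in S1 (-2.84 ± 0.27). With the rotated order its log2 fold was 1.67.

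The 3 flavonol synthases, which close the route to flavonols, changed rank over storage. SeFLS1 had 20.9, 17.7 and 16.0 FPKM in S3, against 315, 413 and 324 FPKM in S1, with a log2 fold of -4.19 ± 0.16 (SE; limma adjusted p = 5.90e-05). SeFLS3 had 90.1, 42.6 and 45.6 FPKM in S3, against 0.53, 0.23 and 0.20 FPKM in S1, with a log2 fold of 5.44 ± 0.31 (adjusted p = 0.000138). SeFLS2 had 32.7, 32.0 and 16.95 FPKM in S3, against 13.7, 12.7 and 11.5 FPKM in S1 (1.00 ± 0.27), a call that was lost when any 1 of 4 libraries was left out. SeFLS1 was the highest of the 3 in every S1 library and SeFLS3 in every S3 library. Their summed level was nonetheless lower at day 30, at 144, 92.3 and 78.5 FPKM in S3 against 329, 426 and 335 FPKM in S1.

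This exchange of the flavonol synthases depends on the order of the stages. With the rotated order SeFLS3 had a log2 fold of -5.45 and SeFLS2 of -1.57, and under the stages of the study's own list SeFLS1 had 0.95. By their own neighbours the deposited order came first for all 3, with 795 for SeFLS1, 119 for SeFLS2 and 659 for SeFLS3. No isoflavone reductase of 5 was higher in S3 and 3 were lower. With the rotated order 3 were lower too, and with the stages of the study's own list 2 were, with none higher under either. SeIFR2 was listed at 0.07, 0 and 0.12 FPKM in S3, against 13.8, 5.51 and 14.8 FPKM in S1 (log2 fold -3.44 ± 0.37, SE). SeIFR1 had 50.9, 49.3 and 47.4 FPKM in S3, against 144, 184 and 195 FPKM in S1 (-1.79 ± 0.15). With the stages of the study's own list its log2 fold was 0.35. The third, TRINITY_DN35909_c0_g1, had a log2 fold of -1.49 and lost its call when any 1 of 3 libraries was left out.

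The UGTs were the largest enzyme group, with 12 of 46 tested higher in S3, 18 lower and 16 not called. With the rotated order 11 of 45 were higher and 24 lower, and with the stages of the study's own list 15 of 46 were higher and 15 lower. As deposited, the summed level of the UGTs was 2237, 2559 and 2579 FPKM in S3. In S1 it was 3743, 3186 and 3237 FPKM, so the stages did not overlap. SeUGT3 had 1.39, 1.16 and 1.27 FPKM in S3, against 82.8, 81.1 and 102 FPKM in S1, a log2 fold of -5.30 ± 0.15 (SE; limma adjusted p = 2.16e-05). SeUGT2 had 16.2, 22.2 and 28.5 FPKM in S3, against 723, 340 and 308 FPKM in S1 (-4.22 ± 0.37). SeUGT1 had 1.48, 4.10 and 3.80 FPKM in S3, against 23.4, 27.2 and 21.2 FPKM in S1 (-2.66 ± 0.31). In each of these 3 the highest S3 library lay far below the lowest S1 library. SeUGT4 kept most of its level, with 132, 123 and 132 FPKM in S3 against 219, 214 and 228 FPKM in S1 (-0.77 ± 0.12).

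The direction of several depends on the order of the stages, since under the stages of the study's own list SeUGT3 had a log2 fold of 1.94, SeUGT2 of 2.27 and SeUGT4 of 0.59, and under the rotated order SeUGT1 had 0.94.

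Under the stages as deposited 5 UGTs of the shorter list rose. SeUGT12 had 9.93, 28.01 and 15.5 FPKM in S3, against 1.16, 1.52 and 2.22 FPKM in S1 (log2 fold 2.74 ± 0.38, SE). SeUGT10 had 112, 103 and 66.9 FPKM in S3, against 31.3, 25.9 and 27.5 FPKM in S1 (1.67 ± 0.21). SeUGT43 had 32.5, 24.5 and 21.9 FPKM in S3, against 10.3, 10.1 and 10.5 FPKM in S1 (1.26 ± 0.17). SeUGT14 and SeUGT17 rose less, with log2 folds of 1.01 ± 0.22 and 1.07 ± 0.34, and the call of SeUGT17 (adjusted p = 0.0396) was lost when any 1 of 4 libraries was left out. Under the rotated order all 5 had negative log2 folds, of -0.20 for SeUGT12, -0.64 for SeUGT10, -0.31 for SeUGT43, -0.51 for SeUGT14 and -0.35 for SeUGT17. By its own neighbours SeUGT17 went with the rotated order, while SeUGT12, SeUGT10 and SeUGT43 went with others.

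Of the wider list of UGTs, 3 more risers and 3 more fallers are named by their folds. TRINITY_DN1926_c0_g6 had 103, 89.7 and 112 FPKM in S3, against 43.1, 30.0 and 33.4 FPKM in S1 (log2 fold 1.5 ± 0.17, SE). TRINITY_DN3199_c0_g1 had 179, 208 and 193 FPKM in S3, against 89.3, 76.7 and 93.3 FPKM in S1 (1.16 ± 0.13), and TRINITY_DN10479_c0_g1 had a log2 fold of 1.42. The 3 lower ones, TRINITY_DN7961_c0_g1, TRINITY_DN29656_c0_g1 and TRINITY_DN12368_c0_g1, had log2 folds of -2.53, -2.20 and -1.78, and the first lost its call when any 1 of 4 libraries was left out. Under the rotated order the first 2 risers had log2 folds of -6.66 and -2.27 and the last faller one of 2.57.

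Of the 137 listed factors, 129 were tested, and 54 were called higher in S3, 55 lower and 20 not called, with a median log2 fold of -0.17. Over all tested unigenes 21.9% were higher and 24.7% lower. This list too holds only factors that the study found to differ between stages in these samples, and nothing is read from the share called. Their FPKM summed to 4326, 4998 and 5055 in the S3 libraries, against 3332, 3483 and 3555 in the S1 libraries, higher in S3 where the structural genes were lower. With S1 and S2 exchanged in these rows, 47 were higher and 58 lower of 132 tested. The study drew 64 of these unigenes out by their course in these samples, which again fixes their direction. Of its 29 harvest-side factors 28 were lower in S3, and of its 35 later-side ones 34 were higher. With S1 and S2 exchanged these were 20 of 27 tested and 26 of 35, and the named factors kept their sign, but SeMYB1, SeMYB3 and TRINITY_DN3931_c0_g1 lost their call. The factors named are the 3 of largest fold in each family and direction, whose limma adjusted p ran from 2.16e-05 to 0.00524, and those with primers.

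The harvest-side MYB factors of largest fold stood under 3 FPKM in every S3 library. FSG0083540 had 0.31, 0 and 0.28 FPKM in S3, against 95.4, 114 and 107 FPKM in S1 (log2 fold -6.48 ± 0.17, SE). FSG0019590 had 2.65, 0.11 and 0.13 FPKM in S3, against 50.4, 51.9 and 56.7 FPKM in S1 (-5.02 ± 0.47). FSG0047650 had 0.74, 0.66 and 0.39 FPKM in S3, against 39.6, 40.1 and 42.8 FPKM in S1 (-4.72 ± 0.16). All 12 harvest-side MYB factors were called lower, and 8 of the 12 with S1 and S2 exchanged.

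The later-side MYB factors mirrored this, with 11 of 12 called higher, and 7 of 12 with S1 and S2 exchanged. FSG0159340 had 174, 184 and 112 FPKM in S3, against 0.83, 2.10 and 1.5 FPKM in S1 (log2 fold 5.99 ± 0.27, SE). FSG0250900 had 105, 126 and 113 FPKM in S3, against 0.96, 2.14 and 5.80 FPKM in S1 (5.05 ± 0.43). TRINITY_DN528_c0_g6 (FSG0186350) had 21.8, 27.8 and 28.4 FPKM in S3, against 0.22, 0.57 and 0.51 FPKM in S1 (4.23 ± 0.20). The same locus is given for the later-side TRINITY_DN1483_c0_g1, so they are not independent members. That unigene had 79.3, 120 and 123 FPKM in S3, against 8.54, 11.4 and 9.23 FPKM in S1 (3.32 ± 0.21). The 12 later-side MYB factors together reached 997, 1067 and 954 FPKM in S3, against 123, 144 and 138 FPKM in S1.

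The PCR primers of the study include MYB factors, of which SeMYB1 and SeMYB3 were found in the files. SeMYB3 had 11.5, 8.71 and 23.0 FPKM in S3, against 77.0, 89.0 and 84.1 FPKM in S1 (log2 fold -2.56 ± 0.33, SE; limma adjusted p = 0.00180), and with S1 and S2 exchanged its adjusted p was 0.0516. SeMYB1, which the study takes as the counterpart of the Arabidopsis flavonol regulator MYB12, had 28.8, 16.8 and 19.1 FPKM in S3, against 30.1, 34.5 and 36.0 FPKM in S1. Its log2 fold was -0.64 ± 0.21 with an adjusted p of 0.0472. The call was lost when any 1 of 5 libraries was left out and, rescaled to the same total, its adjusted p was 0.0861. With S1 and S2 exchanged it was 0.251.

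The bHLH family had 8 of 8 harvest-side members lower, and 7 of 8 with S1 and S2 exchanged. FSG0002660 had 0.90, 0.14 and 1.92 FPKM in S3, against 219, 217 and 121 FPKM in S1 (log2 fold -6.61 ± 0.40, SE). FSG0267470 had 1.12, 0.47 and 0.54 FPKM in S3, against 50.04, 38.6 and 45.5 FPKM in S1 (-4.75 ± 0.21). SebHLH2 (FSG0125260) had 7.64, 2.29 and 13.7 FPKM in S3, against 140, 106 and 123 FPKM in S1 (-4.04 ± 0.52). SebHLH1 (FSG0242730) was steadier between replicates, with 14.8, 16.1 and 17.2 FPKM in S3 against 158, 155 and 170 FPKM in S1 (-3.25 ± 0.11). The 8 together fell to 58.3, 53.5 and 66.4 FPKM in S3, against 699, 645 and 606 FPKM in S1.

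All 6 later-side bHLH factors were higher, and 5 of the 6 with S1 and S2 exchanged. FSG0136270 had 40.2, 33.1 and 22.9 FPKM in S3, against 1.12, 1.97 and 2.51 FPKM in S1 (log2 fold 3.52 ± 0.28, SE). FSG0093660 had 122, 93.4 and 65.2 FPKM in S3, against 15.3, 16.9 and 11.8 FPKM in S1 (2.56 ± 0.26). FSG0166740 was lower in level, with 9.0, 13.2 and 20.3 FPKM in S3 against 1.26, 1.42 and 1.67 FPKM in S1 (2.57 ± 0.30).

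The WRKY list was one-sided, with 9 later-side members, all higher, and a single harvest-side member. With S1 and S2 exchanged 7 of the 9 were called higher. FSG0220320 had 39.3, 99.3 and 114 FPKM in S3, against 1.69, 2.79 and 1.10 FPKM in S1 (log2 fold 4.80 ± 0.44, SE). FSG0209270 had 39.4, 107 and 151 FPKM in S3, against 2.02, 5.15 and 1.45 FPKM in S1 (4.61 ± 0.56). FSG0124210, the most even of these 3, had 195, 248 and 208 FPKM in S3, against 7.82, 9.22 and 9.19 FPKM in S1 (4.48 ± 0.14). The harvest-side member, FSG0141310, had 5.82, 4.90 and 4.39 FPKM in S3, against 17.8, 18.6 and 21.8 FPKM in S1 (-1.76 ± 0.16). The 9 later-side members summed to 676, 1039 and 1116 FPKM in S3, against 61.4, 75.3 and 59.4 FPKM in S1. S3 replicate 1 was the lowest S3 library in this sum.

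**Figure D5:**
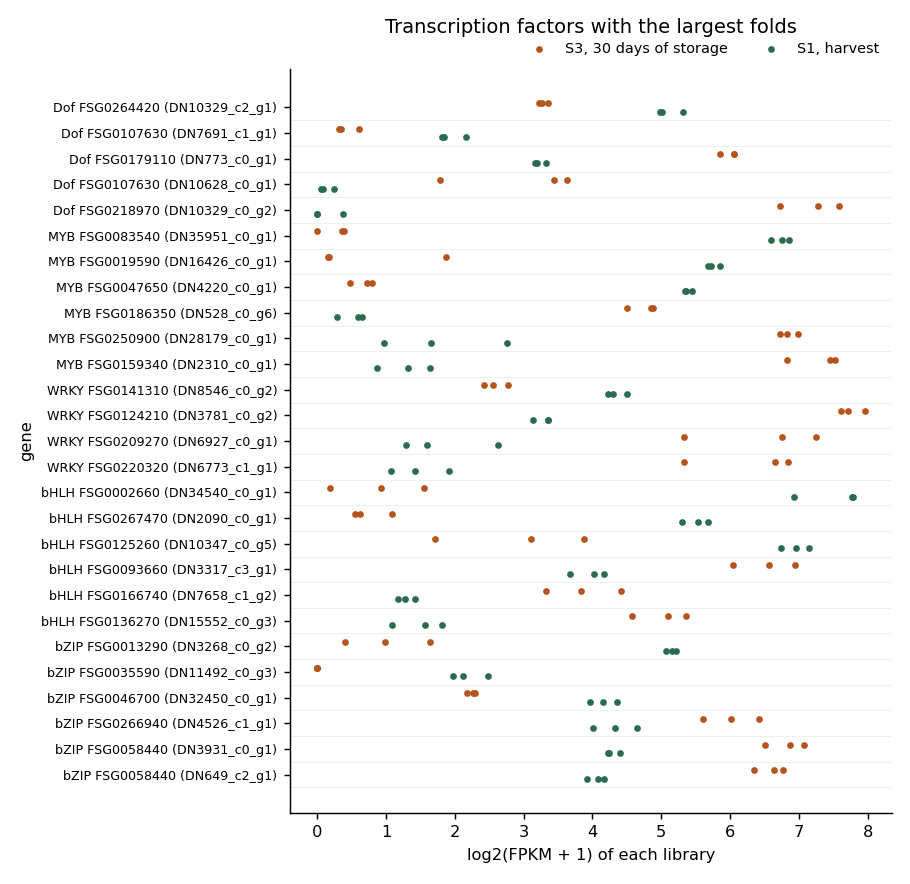
Points give log2(FPKM + 1) of each S3 library (orange, upper) and each S1 library (green, lower) for the factors with the largest folds in each family and direction, labelled by family, locus and the number of the Trinity unigene. No factor shown has overlapping stages, which is a description, since they were picked by their folds in these same libraries. Over all tested unigenes 58% had stages that did not overlap. The widest gaps are those of Dof FSG0218970, bHLH FSG0002660 and MYB FSG0083540.

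Of the bZIP factors, 5 of 6 harvest-side members were lower and 5 of 5 later-side members higher. With S1 and S2 exchanged these were 3 of 5 tested and 4 of 5. FSG0013290 had 2.12, 0.33 and 0.99 FPKM in S3, against 32.6, 36.1 and 34.7 FPKM in S1 (log2 fold -4.13 ± 0.32, SE). FSG0046700 had 3.92, 3.82 and 3.50 FPKM in S3, against 16.7, 14.7 and 19.4 FPKM in S1 (-1.91 ± 0.16). TRINITY_DN11492_c0_g3 (FSG0035590) is the factor listed at 0 in all S3 libraries. Another listed unigene of that locus, TRINITY_DN11492_c0_g1, had 0.08, 0.13 and 0.03 FPKM in S3, against 0.92, 0.37 and 0.99 FPKM in S1, and was not tested. On the later side the same locus, FSG0058440, is given for 2 unigenes, so they are not independent members. TRINITY_DN649_c2_g1 had 80.3, 108 and 98.5 FPKM in S3, against 14.1, 17.1 and 15.9 FPKM in S1 (2.53 ± 0.15). TRINITY_DN3931_c0_g1 had 116, 134 and 89.7 FPKM in S3, against 17.8, 17.7 and 20.2 FPKM in S1 (2.53 ± 0.17). With S1 and S2 exchanged the second had a log2 fold of 0.68 and an adjusted p of 0.0700. FSG0266940 had 84.6, 63.6 and 47.5 FPKM in S3, against 15.0, 19.2 and 24.1 FPKM in S1 (1.68 ± 0.26).

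Among the Dof factors both harvest-side members were lower and all 3 later-side members higher. With S1 and S2 exchanged these were 1 of 1 tested and 3 of 3. FSG0218970 had 105, 154 and 190 FPKM in S3 and was listed at 0, 0 and 0.30 FPKM in S1, with a log2 fold of 7.07 ± 0.25 (SE). FSG0179110 had 65.6, 56.6 and 65.5 FPKM in S3, against 8.17, 7.94 and 9.04 FPKM in S1 (2.76 ± 0.12). FSG0264420 had 8.35, 8.61 and 9.24 FPKM in S3, against 30.7, 31.1 and 38.9 FPKM in S1 (-1.82 ± 0.14). The locus FSG0107630 is given for a unigene on each side. TRINITY_DN10628_c0_g1 had 2.46, 9.81 and 11.4 FPKM in S3, against 0.04, 0.19 and 0.06 FPKM in S1 (2.82 ± 0.50). TRINITY_DN7691_c1_g1 had 0.52, 0.27 and 0.25 FPKM in S3, against 2.53, 2.59 and 3.47 FPKM in S1 (-1.52 ± 0.21). Unigenes given the same locus thus differed in direction.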

How the data were processed

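The authors deposited FPKM rounded to 2 decimals, 1 file per library, from reads filtered with fastp. The mapper, the counting tool and the assembly's annotation are named in none of the sources used, and FPKM carries neither counts nor lengths, so no counting interval was computed. In the file of S1 replicate 1, 8 columns without a name were not used. Samples were grouped by their labels. The test was limma 3.58.1 (R 4.3.3; lmFit, and eBayes with its trend option) on log2(FPKM + 1). It was fitted over unigenes at 1 FPKM or more in 3 or more of the 6 libraries, with Benjamini-Hochberg adjustment over all 25920, and it was tested on simulated data. No minimum fold was used. Other work used Python 3.11.15, pandas 2.3.3, numpy 2.4.6, scipy 1.17.1 and matplotlib 3.10.9.

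Names come from the study's supplementary lists. Genes listed there without identifiers were matched by their 9 values (91 of 95). The primer loci of SeMYB2, SeCHS1, SeUGT1, SeUGT4 and SeFNSI2 were matched to no unigene. All structural genes of the shorter list are named, the 3 factors of largest fold per family and direction, those with primers, at most 3 called genes per enzyme of the longer list, and 4 unlisted unigenes. The members and lists were chosen with earlier results of these data known. Alternatives were other scalings, filters, pseudocounts and thresholds, limma without trend or with robust, all 9 libraries, a replicate block and each library left out. Other orders of the stages of listed rows were added after the data were seen.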

Additional observations from a re-analysis of the deposited data

Results flagged for a closer look

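The file of S1 replicate 1 holds 8 values in columns without a name, all in the row of TRINITY_DN9941_c2_g5 (Se4CL3). All 8 equal the values of that unigene in the other 8 libraries, and they lie outside the comparison above. Groups of 3 libraries are too small for a check of single libraries that stand apart.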

How the results depend on the processing

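At an adjusted p under 0.01, 7016 unigenes were called, 3091 higher in S3 and 3925 lower, with 9 structural genes higher in place of 16, and at an adjusted p under 0.05 with a log2 fold of 1 or more, 3595 were higher in place of 5686. Scaling, filters, pseudocounts, limma's options, all 9 libraries and the block kept every count of calls within 1.5 times, with 11201 calls of 55555 unigenes without the filter, and the share of calls higher in S3 lay between 45.1% and 53.0% (47.0% as reported). Same-numbered S3 and S1 libraries did not deviate together (r of -0.23, -0.07 and -0.03 over 11219 unigenes), and the replicate block left 10309 calls, 35 structural genes lower and 14 higher, with SeCHS1 gained (adjusted p = 0.0344) and SeMYB1 (0.0942) and SeUGT17 (0.0643) lost. Leaving out 1 library gave 8734 to 13097 calls, 3894 to 6117 higher and 4730 to 6980 lower. It gave 12 to 16 structural genes higher and 28 to 39 lower, and 48 to 58 factors higher and 48 to 53 lower. Of 70 named unigenes called, 10 lost the call without some library. Leaving out 1 library, which eases the one-end rule for its stage, gave 462 to 821 S3-only and 701 to 1205 S1-only unigenes. It also gave a top 10 share that differed by -3.97 to -3.04 points and a number for 50% of the total higher by 209 to 263. At FPKM of at least 0.5, 5 and 10 the S3-only counts were 724, 36 and 7, and the S1-only counts 1132, 104 and 50. Without each library's most abundant unigene the top 10 share differed by -2.38 points.

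Signs turned only with other orders of the stages. Under the stages of the study's own list the log2 folds were 1.94 for SeUGT3, 0.95 for SeFLS1, 2.27 for SeUGT2, 0.59 for SeC4H1, 0.35 for SeIFR1, 1.89 for SeCHS1, 0.73 for SeDFR, 0.59 for SeUGT4 (TRINITY_DN8312_c0_g1) and 0.38 for Se4CL3. The rotated order is the most common of its group and not the best of each gene. Under it the log2 folds were 2.57 for TRINITY_DN12368_c0_g1, -0.31 for SeUGT43, -6.66 for TRINITY_DN1926_c0_g6, -0.20 for SeUGT12, 0.90 for TRINITY_DN25974_c0_g1, -1.57 for SeFLS2, -0.90 for Se4CL16, -2.27 for TRINITY_DN3199_c0_g1, 1.67 for SeFNSI1, 0.94 for SeUGT1, -0.54 for Se4CL4, -0.64 for SeUGT10, -0.35 for SeUGT17, -5.45 for SeFLS3 and -0.51 for SeUGT14. The cause was not tested. Depth limits what can be said of unigenes under 1 FPKM, and an exact 0 is a listing, not an absence.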

Other observations

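The top of the table did not move in 1 direction through storage. In the S2 libraries the 10 most abundant unigenes held 12.6%, 12.1% and 13.3% of the total, above all S3 and S1 libraries, and 721, 791 and 732 unigenes reached 50% of the total, below all of them. TRINITY_DN17194_c0_g1, the largest loss by day 30, had 29197, 24854 and 25188 FPKM in S2, above its level in every S1 library, and TRINITY_DN6858_c1_g1, the largest gain, had 171, 212 and 126 FPKM in S2, in the range of its S1 libraries or a little below.

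The summed level of the later-side WRKY factors was 282, 48.8 and 67.2 FPKM in S2, where S2 replicate 1 stood apart, against 59.4 to 75.3 FPKM in S1. That of the harvest-side bHLH factors was 183, 373 and 463 FPKM in S2, with S2 replicate 1 again apart, against 606 to 699 FPKM in S1. Listed rows and unlisted ones differ in the order of the stages they resemble, as given above.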
